A study of Macrobrachium rosenbergii with 20 samples.

Results

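A set of 96 transcripts, of 30260 in the table, was measured at appreciable levels in both gonads of the giant freshwater prawn (Macrobrachium rosenbergii) and at low levels in the hepatopancreas of both sexes. Counts were divided by a size factor for each library (the median-of-ratios method), which gives a normalised count written N here, and medians of N were taken over the 5 libraries of each group. Members had a median N of at least 50 in ovary and in testis and under 10 in female and in male hepatopancreas. The levels in all 4 groups therefore chose the set, and the contrast of gonad with hepatopancreas is given below as levels with no test. All 96 that met the rule were kept, since the cap of 300 was not reached. The table gives no gene names, and 0 of its IDs could be matched to a reference gene, so germ cell marker genes could not be looked up. The set is called gonad-shared here, with no claim that its transcripts come from germ cells. Members named here all carry the word Female in their IDs, and short names such as transcript131 stand for those full IDs.

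The libraries came from adult prawns with the strain label CMr1. Each of 4 groups had 5: the hepatopancreas of females, that of males, the ovary and the testis. No treatment is given for any group. Each replicate of a group carries a weight gain label of its own, and p-values measure the spread between these samples. RNA was extracted from dissected tissue. In such bulk samples, fewer cells of a type and less RNA per cell cannot be told apart.

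Ovary and testis each hold germ cells at successive stages beside somatic support cells. In both sexes germ cells divide by mitosis and then enter meiosis, and animal gonads of both sexes are known to share RNAs for chromosome pairing, for the control of mobile elements and for the storage and translation of messages. The hepatopancreas, the digestive gland of crustaceans, makes digestive enzymes and stores lipid. It is a somatic tissue.

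Library totals ran from 8670654 to 18355664 counts. Some libraries stood apart. In female hepatopancreas 4 the gonad-shared set took 0.143% of counts, against 0.00109% to 0.00441% in the other 4 female libraries. A set of 267 transcripts defined in the same way for testis alone (median N of at least 50 in testis and under 10 in the other 3 groups) made up 1.33% of female hepatopancreas 4 and 1.61% of ovary 3, where single transcripts made up 85.4% and 94% of that. The same testis-only set took 71%, 59.3%, 56.9%, 51.4% and 24.2% of counts in testes 1 to 5, so testis 5 was the lowest.

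The gonad-shared set made up a similar share of all 5 ovaries and a smaller and more variable share of testes. It took 1.80%, 1.64%, 1.89%, 1.67% and 1.66% of the counts in ovaries 1 to 5. It took 0.371%, 0.476%, 0.558%, 0.882% and 0.742% in testes 1 to 5. The lowest ovary was above the highest testis, on shares of library totals. In male hepatopancreas the share ran from 0.00114% to 0.00285%. The leading member of each library held 36.6%, 37.5%, 24.3%, 25.7% and 11.7% of the set's counts in testes 1 to 5, and 17.9% to 22.2% in ovaries. It was transcript9002 in testes 1, 3 and 4, transcript10215 in testis 2 and transcript6494 in testis 5.

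**Figure D1:**
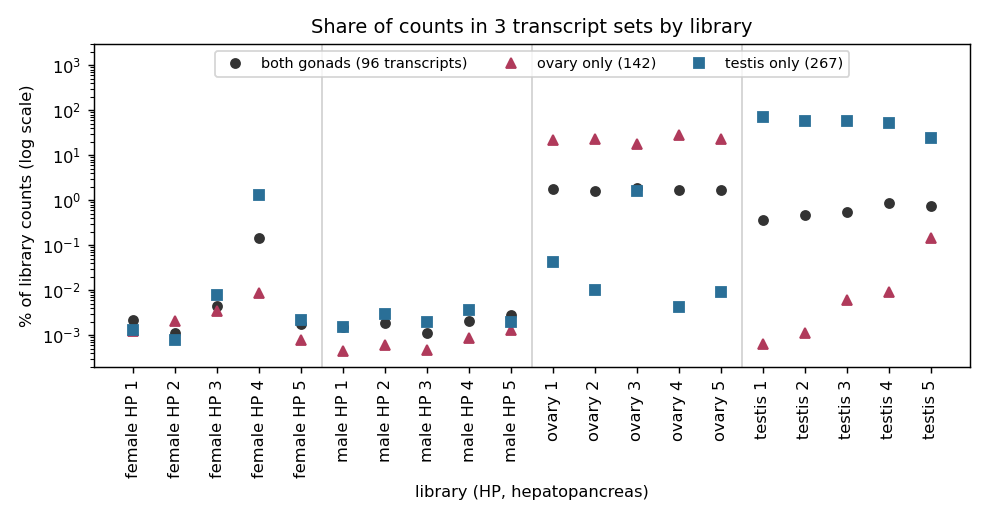
Percent of each library's counts (log axis) taken by the 96 gonad-shared transcripts (circles), by 142 transcripts chosen the same way for ovary alone (triangles) and by 267 chosen for testis alone (squares), for the 20 libraries. The gonad-shared set lies between 1.64% and 1.89% in ovaries and between 0.371% and 0.882% in testes.

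The transcripts of the set were not spread evenly over the 5 testes: most were close to background in testes 1 and 2 and well measured in testes 3, 4 and 5. At N of 10 or more, the limit that the rule sets for hepatopancreas, 37 of the 96 were measured in testis 1 and 38 in testis 2. In testes 3, 4 and 5 the corresponding numbers were 96, 95 and 92. The median N over the set was 4.03 in testis 1 and 4.80 in testis 2, against 170.2, 187.2 and 253.0 in testes 3, 4 and 5. Ovaries showed no such split, with medians of 262.2, 210.8, 182.2, 247.3 and 205.6 in ovaries 1 to 5 and between 94 and 96 members at N of 10 or more. A median of at least 50 over 5 testes needs only 3 testes, so the rule itself allows a member to be low in the other two.

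**Figure D2:**
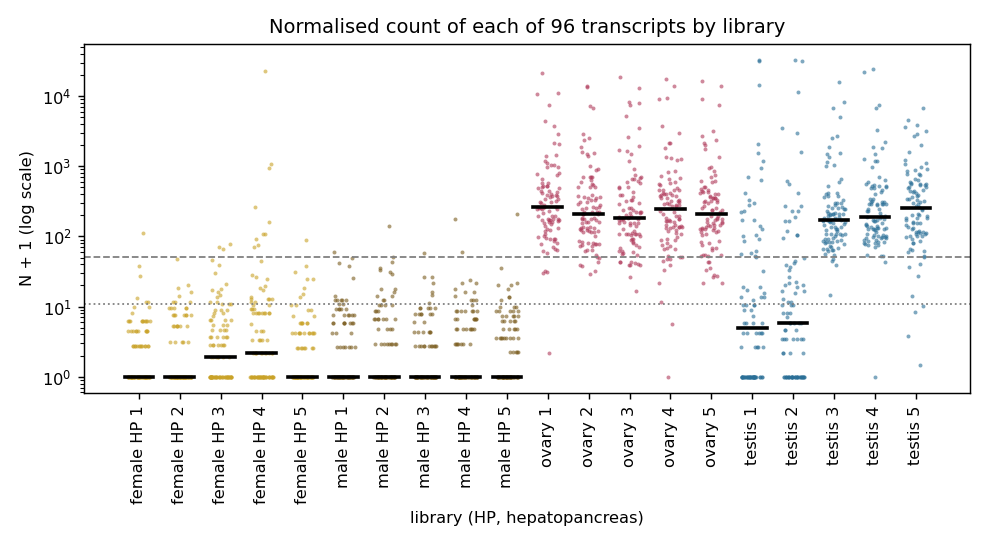
N + 1 of each of the 96 gonad-shared transcripts (points, log axis) in the 20 libraries, with the median over transcripts as a bar. The dotted and dashed lines mark the limit of 10 for hepatopancreas and the minimum of 50 for gonads. Medians in testes 1 and 2 (4.03 and 4.80) lie far below those of the other testes and of all ovaries.

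By testis library the set fell into 4 patterns. The largest held 50 of the 96 transcripts (52.1%), which were at N of 10 or more in testes 3, 4 and 5 and under 10 in testes 1 and 2. Among all 5336 transcripts of the table with a testis median of at least 50, 84 (1.57%) had that pattern, so the gonad-shared set held 50 of those 84. Another 24 (25%) reached 10 in all 5 testes, as did 91.2% of the 5336. A further 4 (4.17%) reached 10 in testes 1 to 4 and fell below it in testis 5, against 4.12% of the 5336. The remaining 18 missed the limit in a single other testis. Of these 18, 9 missed it in testis 1 (9.38% of the set, against 0.937% of the 5336). Another 8 missed it in testis 2 (8.33%, against 0.9%) and 1 in testis 4 (1.04%, against 0.45%). These patterns were read from the values, and no test was made of them. Between limits of 5 and 20 in place of 10, the number below the limit in testes 1 and 2 and at or above it in the other 3 was 43 and 62.

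Among the 50 transcripts with the main pattern, N in testis 1 ran from 0 to 9.66 and in testis 2 from 0 to 9.60, with a median of 0 in both. In testis 3 their N ran from 53.2 to 2485, with a median of 151.6. In testis 4 it ran from 54.1 to 2178, with a median of 146.0. The levels in testes 3 and 4 were thus close to each other. In testis 5 N ran from 52.2 to 4503, with a median of 279.1. The medians of the same 50 in ovaries 1 to 5 were 250.0, 210.8, 191.9, 282.4 and 237.3. The rule used these levels: a member under 10 in testes 1 and 2 has to be at 50 or more in each of testes 3, 4 and 5 to be chosen.

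Testes 1 and 2 held 14760531 and 15348050 counts, both within the range of the other 3 testes (12822727 to 17102851). Their size factors were lower, at 0.62 and 0.83, against 1.24, 1.20 and 2.17 in testes 3, 4 and 5. A given N thus rests on fewer counts in testes 1 and 2. Of the 96 transcripts, 22 had no count in either testis 1 or testis 2. A count of 0 allows up to 3 counts, which is an N of 4.83 in testis 1 and 3.60 in testis 2. This limit covers counting error only. Weight gain, a label with no stated unit, was 2.05 and 2.83 for testes 1 and 2 and 2.61, 1.48 and 2.74 for testes 3 to 5, so the labels overlap. The share of the testis-only set was highest in testes 1 and 2 (71% and 59.3%), and its part in the pattern was not tested.

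**Figure D3:**
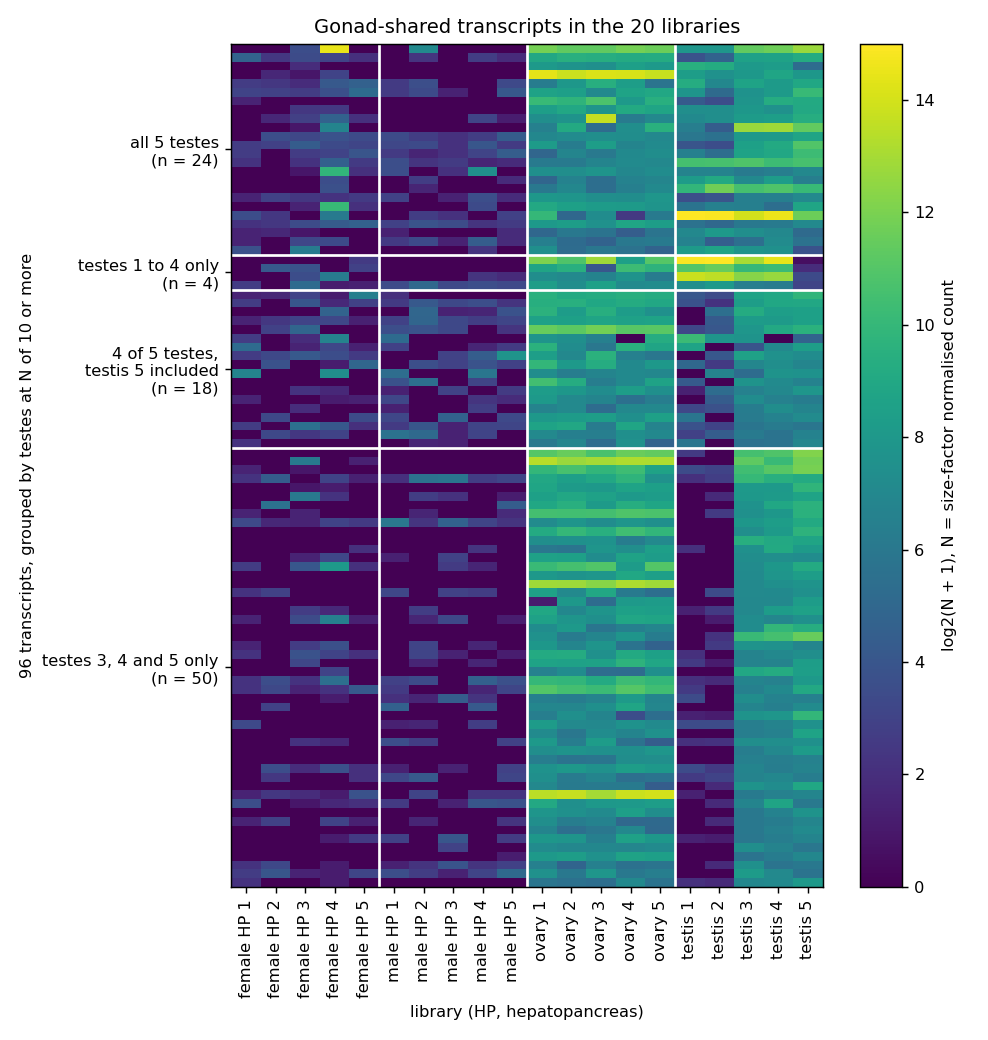
log2(N + 1) of the 96 gonad-shared transcripts (rows) in the 20 libraries (columns), with rows grouped by the testes in which N was 10 or more and ordered by the smaller gonad median within each group. The lowest block shows the 50 transcripts measured in testes 3, 4 and 5 and near 0 in testes 1 and 2.

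The clearest example was transcript_HQ_Female_transcript131/f2p0/4058, which had no count in any of the 10 hepatopancreas libraries. Its N was 2145, 2879, 1665, 2987 and 2660.0 in ovaries 1 to 5. In testes 1 to 5 it was 4.83, 0, 1524, 1872 and 4503. The ovaries varied by less than 2-fold (highest over lowest N + 1 of 1.79), and testis 5 was above every ovary while testes 1 and 2 were at or near 0. The ovary minus testis change was 0.59 ± 1.40 on the log2 scale (SE, edgeR adjusted p 0.739), and without testes 1 and 2 it was -0.26.

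In 4 transcripts N fell under 10 in testis 5 alone, and 1 of them was among the most abundant of the set. They were 4.17% of the set, against 4.12% of all 5336 transcripts with a testis median of at least 50. The pattern was thus not particular to the set. The rule needs only 3 testes at 50 or more, so it can admit a transcript that is low in testis 5 alone. Other members, such as transcript9002 and transcript11827, were also lowest in testis 5 but stayed above 10 there. Transcript transcript_HQ_Female_transcript10215/f2p0/1511 had an N of 31189, 32827, 8277, 22256 and 0.46 in testes 1 to 5. In ovaries 1 to 5 it had 4419, 1904, 7418, 373.0 and 2134. Testis 5 thus held almost none of a transcript that was at 8277 or more in each of the other testes, and the 4 ovaries other than ovary 4 lay between 1904 and 7418. The groups overlapped because of testis 5, and the log2 change (ovary minus testis) was -2.42 ± 1.46 (SE, edgeR adjusted p 0.179). Without testis 5 it was -2.76 and passed the threshold, with an edgeR adjusted p of 0.0116. The 4 transcripts under 10 in testis 5 had N between 0.46 and 9.23 there and between 170.7 and 31189 in testis 1.

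The member with the highest smaller gonad median was transcript_HQ_Female_transcript6494/f74p0/1713. Its N in ovaries 1 to 5 was 3742, 2562, 2579, 3802 and 3141. In testes 1 to 5 it was 230.3, 230.4, 2670, 3260 and 6864. Testes 1 and 2 were lower than the others but far above 0, so this transcript belongs to the 24 measured in all testes. In hepatopancreas it was at 0 in 7 of 10 libraries, at 10.74 in female 3 and at 138.5 in male 2, and it reached 22921 in female hepatopancreas 4. That single value was higher than in any gonad library. The ovary minus testis log2 change was 0.21 ± 0.82 (SE, edgeR adjusted p 0.843), and its sign turned to -0.12 without testis 1 or without testis 2.

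The steadiest members were picked for the lowest coefficient of variation over the 10 gonad libraries, which leaves out any with a wide split between testes. For transcript_HQ_Female_transcript823/f3p0/3020, N was 177.2, 171.9, 218.5, 122.2 and 155.8 in ovaries 1 to 5 and 103.1, 102.0, 71.8, 84.1 and 127.4 in testes 1 to 5. Ovary 4 lay within the range of the testes, and the other ovaries lay above it. The coefficient of variation over the 10 libraries was 34.8%. For transcript_HQ_Female_transcript6293/f2p0/1823, N was 345.2, 510.6, 215.1, 551.3 and 433.0 in ovaries and 170.7, 166.8, 242.8, 194.7 and 538.7 in testes 1 to 5, a coefficient of variation of 47.1%. Testis 5 was the highest testis for both. The former was called higher in ovary, at 0.83 ± 0.26 on the log2 scale (SE, edgeR adjusted p 0.020), although its groups overlapped and the call was lost in 6 other settings. The edgeR adjusted p was 0.0627 without testis 3, 0.0586 without testis 4, 0.105 without testes 1 and 2, 0.0672 with the replicate number as a block, 0.0665 with weight gain as covariate and 0.658 with all 4 groups in 1 fit, at log2 changes of 0.70 to 0.95. In hepatopancreas it reached 931.2 in female 4 and 174.6 in male 4, with at most 11.3 elsewhere. Transcript6293 was not called between ovary and testis, at 0.63 ± 0.41 on the log2 scale (SE, edgeR adjusted p 0.206). Of the other settings, it was called only without testis 5, at 1.07 (edgeR adjusted p 0.00956), and on library totals, at 1.72 (edgeR adjusted p 0.0285).

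Spread between libraries was greater in testis than in ovary for this set. The ratio of the highest to the lowest N + 1 over the 5 testes had a median of 156 and was above 10 for 83 of 96 members (86.5%). Over all 7045 transcripts tested in the gonads the median was 3.50, and 23.3% were above 10. In ovary the median ratio was 3.15 for the set and 2.37 for all transcripts tested, and 14 of 96 (14.6%) were above 10, against 13.1% of all. The ovary spread of the set was near that of all transcripts tested, and the testis spread was not. Most of those are not confined to gonads, and an uneven spread over testes was not particular to this set. Of the 267 testis-only transcripts, 256, 252, 261, 262 and 122 reached 10 in testes 1 to 5. As a description across the 96 transcripts, which share libraries and so are not independent points, Spearman's rho of log2(N + 1) between pairs of ovaries ran from 0.52 to 0.84. It was 0.81 between testes 3 and 4 and 0.70 between testes 1 and 2, but -0.07 between testes 1 and 5. Between an ovary and a testis it ran from -0.17 to 0.35.

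The largest ranges among ovaries were those of transcript10942 and transcript9002. Transcript transcript_HQ_Female_transcript10942/f39p0/1416 had an N of 214.4, 178.4, 91.1, 0 and 611.2 in ovaries 1 to 5 and 1203, 228.0, 205.7, 0 and 25.9 in testes 1 to 5. It had no count in ovary 4 and none in testis 4, and was between 25.9 and 1203 in the other 8 gonad libraries. Transcript transcript_HQ_Female_transcript9002/f18p0/1560 had an N of 1023, 31.3, 154.4, 4.68 and 67.5 in ovaries 1 to 5, so ovary 1 was the highest and ovary 4 the lowest.

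Ovary was compared with testis to find which gonad-shared transcripts differ between the sexes' gonads. The rule set a floor in both gonads but did not use their difference. The test was fitted on all 7045 transcripts that had 10 counts or more in 5 or more of the 10 gonad libraries, and all 96 members were among them. Of these, 18 were called (18.8%), 11 higher in ovary and 7 higher in testis, where edgeR called 56.9% of all transcripts tested (27% toward ovary, 29.9% toward testis). The rule removes transcripts present in a single gonad, which the table as a whole keeps, so a lower share called is partly fixed by the choice of members and nothing is read from it. The same holds for the other shares of all transcripts set beside this comparison. A change of at least 2-fold was called for 17 members, against 51.2% of all, and 22 had an unadjusted p under 0.05, against 61.7%. Of the 50 transcripts under 10 in testes 1 and 2, 5 were called, all higher in ovary, and of the 24 measured in all testes 9 were called, 3 higher in ovary and 6 in testis. The median SE of the log2 change was 1.17 for the former and 0.65 for the latter. DESeq2 called 28 of 95 members, against 62.8% of all transcripts, with 18 toward ovary (29.2% of all) and 10 toward testis (33.6% of all). At an unadjusted p under 0.05 DESeq2 had 32 members, against 66.1% of all.

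The split of the calls between ovary and testis moved with the scaling and with the libraries used. The median log2 change (ovary minus testis) was 0.80 over the 96 members and -0.11 over all transcripts tested. The change was above 0 for 67 members (69.8%), against 48% of all transcripts tested. On library totals without TMM factors, which moved the median of all transcripts to 1.17, the set's median was 1.76 and 28 were called, 24 of them higher in ovary, against 60.1% of all transcripts called. The ovary-higher share of calls was 61.1% with TMM and 85.7% without it in the set, and 47.5% and 76.9% over all transcripts. Without testes 1 and 2, edgeR called 37 of the 96 (38.5%, against 50.1% of all transcripts tested), 20 toward ovary and 17 toward testis, and the set's median change was 0.05. This comparison sets 5 ovaries against the other 3 testes and was added after the data were seen. The ovary-higher share of calls was then 54.1%, and it was 53.3% without ovary 1 and 53.8% without testis 3. Without testis 1 the split turned, with 8 members higher in ovary and 9 in testis. That share was 47.1%, against 49.2% over all transcripts. Without testis 5, 27 members were called (28.1%, against 60.5% of all transcripts), 18 higher in ovary and 9 in testis.

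**Figure D4:**
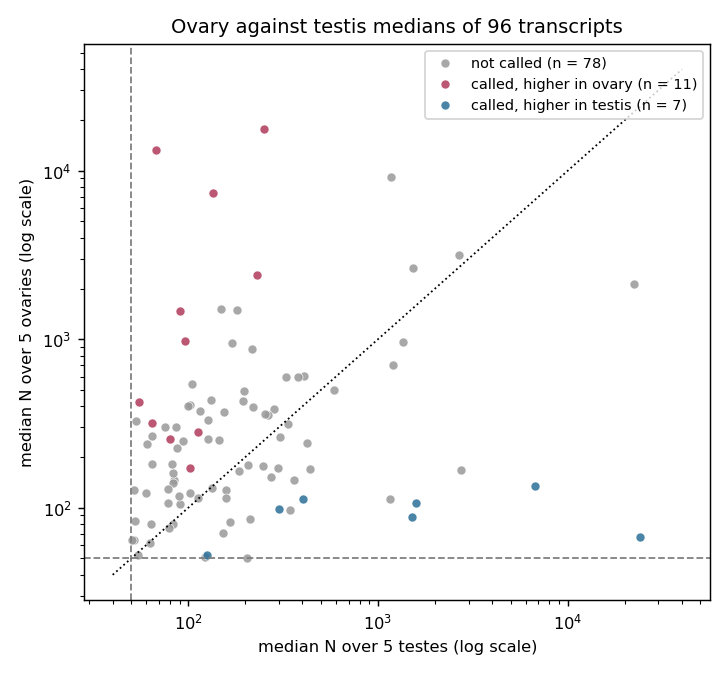
Median N over 5 ovaries against median N over 5 testes (both log axes) for the 96 gonad-shared transcripts, coloured by the edgeR call. Dashed lines mark the minimum of 50 and the dotted line equal medians. The 11 transcripts called higher in ovary lie above the dotted line and the 7 called higher in testis below it.

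The largest differences toward ovary were in transcripts abundant in ovaries and far lower in every testis. Transcript transcript_HQ_Female_transcript4517/f4p0/1974 had an N of 11226, 13335, 8006, 14104 and 16344 in ovaries 1 to 5 and 1.61, 0, 67.8, 94.0 and 112.6 in testes 1 to 5. Every ovary was above every testis, by a log2 change of 7.78 ± 1.36 (SE, edgeR adjusted p 0.000852). Transcript transcript_HQ_Female_transcript85/f2p0/4212 had 7403, 7153, 5223, 9018 and 7358 in ovaries and 0, 0, 134.7, 173.1 and 203.6 in testes 1 to 5, a log2 change of 6.09 ± 1.43 (SE, edgeR adjusted p 0.00455). It had no count in any hepatopancreas library. Both entered the set through levels in testes 3 to 5 that were a small part of the ovary level. The next largest change was that of transcript6611, at 5.88 ± 0.38 (SE, edgeR adjusted p 3.56e-06). Its N was 13761 to 21180 in ovaries and 190.8 to 452.7 in testes, with testes 1 and 2 at 327.0 and 190.8. It was named after its values were seen.

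The most abundant ovary transcripts were near 0 in testes. Of the 10 transcripts with the highest ovary medians among all those under 10 in both hepatopancreas groups, none of which is a member, 9 had an N of at most 3.60 in any testis. The remaining transcript had 8.05, 6, 32.3, 57.4 and 81.3 in testes 1 to 5, with its highest value at 0.211% of its ovary median of 38517. Of the 142 ovary-only transcripts, 2, 5, 15, 17 and 25 reached 10 in testes 1 to 5, although that set was chosen for a low testis median. More of them were thus measured in testes 3 to 5 than in testes 1 and 2, as for the gonad-shared set, at 1.41% to 17.6% against 38.5% to 100%.

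The largest called differences toward testis with no overlap between groups were in transcript9002 and transcript526. Transcript transcript_HQ_Female_transcript9002/f18p0/1560 had an N of 32278, 31118, 15978, 24165 and 3177 in testes 1 to 5, against at most 1023 in an ovary. The log2 change was -6.29 ± 1.43 (SE, edgeR adjusted p 0.00372). Transcript transcript_HQ_Female_transcript526/f2p0/3298 had 935.8, 3497, 1512, 1844 and 1113 in testes 1 to 5 and 62.8, 119.7, 42.5, 87.7 and 139.1 in ovaries 1 to 5, a change of -4.25 ± 0.46 (SE, edgeR adjusted p 5.51e-05). The lowest testis was above the highest ovary for both. A larger change than that of transcript526 was called for transcript431, at -5.71 ± 1.24 (SE, edgeR adjusted p 0.00297), where testis 5 had an N of 9.23, below every ovary, and the other testes had 5043 to 14412. It was named after its values were seen. Over the set, 15 members had all ovaries above all testes and 3 had all testes above all ovaries, 18.8% together, where 43.7% of all transcripts tested did not overlap (22.9% and 20.9%).

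**Figure D5:**
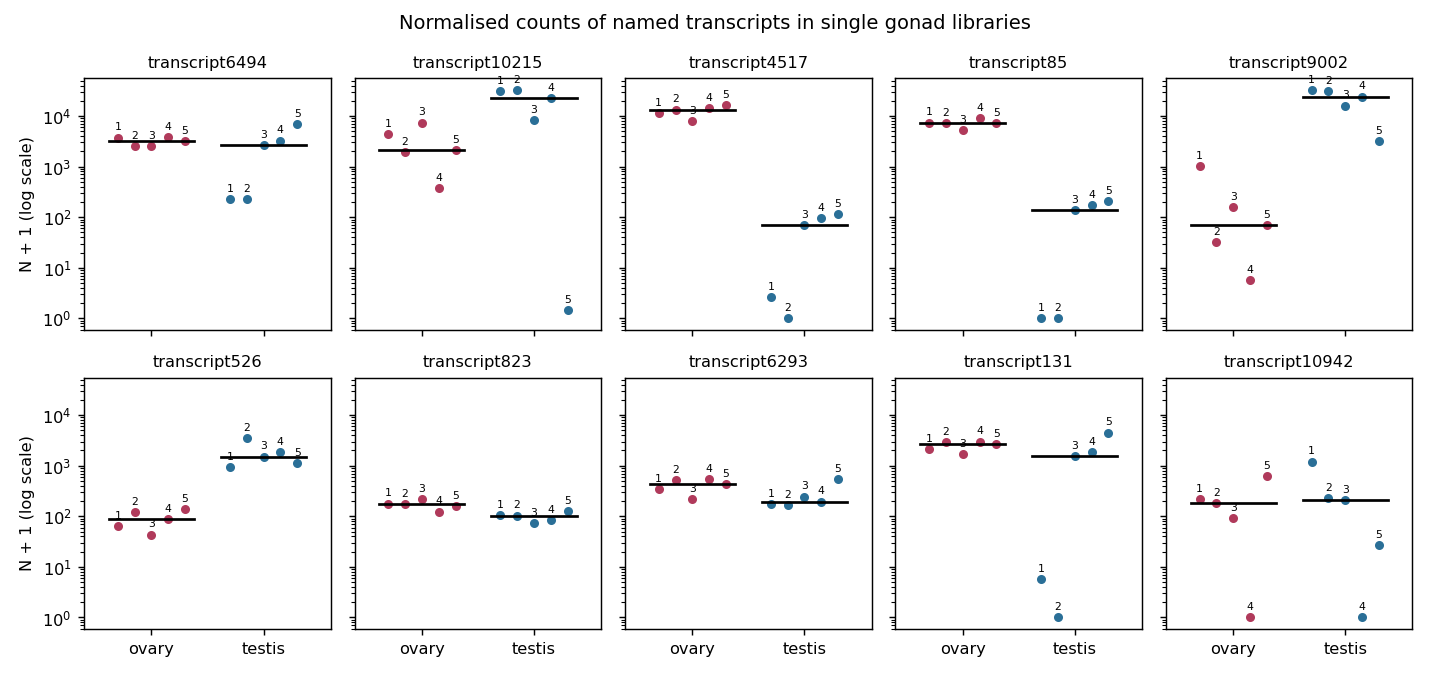
N + 1 (log axis) in the single gonad libraries for 10 named transcripts, with libraries numbered and medians as bars. Testes 1 and 2 are near 0 for transcript131, transcript4517 and transcript85, testis 5 is near 0 for transcript10215, and transcript823 and transcript6293 are the most even.

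In the hepatopancreas, the contrast that the rule used, the set was low but not absent. Every ovary was above every female hepatopancreas library for 86 of 96 members (27.7% of all transcripts tested), and every testis above every male hepatopancreas library for 30 (14.7% of all). These shares follow from the rule and from testes 1 and 2 and are given as a description. Of the 96, 15 had no count in any of the 10 hepatopancreas libraries, and all 15 were among the 50 that were under 10 in testes 1 and 2. At least 1 hepatopancreas library reached 10 for 57 members. Female hepatopancreas 4 had the most members at 10 or more (24), against 6 to 14 in the other 9 libraries. Of the 25045 hepatopancreas counts of the set, 19568 came from transcript6494 in that library. Without that transcript the set took 0.018% of its counts, still above the other hepatopancreas libraries.

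At the edges of the rule, the members just inside the gonad minimum were transcript_HQ_Female_transcript11827/f2p0/1424, with a smaller gonad median of 50.28 (ovary), and transcript_HQ_Female_transcript6905/f2p0/1760, with 50.32 (testis). The transcripts just outside it had 49.24 (ovary) and 49.10 (testis). At the hepatopancreas limit, the highest medians inside were 9.84 (female) and 9.71 (male), and the lowest outside were 10.21 and 10.26 (both male). In all, 4036 transcripts had medians of at least 50 in both gonads, so the hepatopancreas limit removed most of them.

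Transcripts of the set resembled other gonad transcripts in length and ID. Their lengths ran from 572 to 4212 bases with a median of 1536, against 1623 for all transcripts tested. All 96 carried HQ in the ID, as did 99.1% of all tested, and 95 carried the word Female (97.5% of all tested). The number written after f in the ID had a median of 3 in both. Because IDs are transcripts, isoforms or near-identical copies of a gene can share reads, and the estimated counts of single members can depend on how such reads were divided.

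Weight gain within sex was not associated with any member at the threshold. The slope was fitted on the 10 gonad libraries with sex as a term, with weight gain labels between 2.14 and 7.52 for ovaries and between 1.48 and 2.83 for testes. Slopes of the 96 members ran from -1.26 to 1.21 log2 per unit, with a median of -0.02, against 0 over all transcripts tested. EdgeR called 0 members and 0% of all transcripts, and DESeq2 called 0 members and 0.326% of all (0.227% rising and 0.0994% falling with weight gain). At an unadjusted p under 0.05 stood 1 member in edgeR (2.48% of all transcripts) and 4 in DESeq2 (5.76% of all). The member in edgeR was transcript9002, with a slope of -0.76 ± 0.29 (SE, edgeR adjusted p 0.9998), the transcript whose ovary levels were highest in ovary 1, the ovary with the lowest weight gain.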

How the data were processed

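Values are estimated counts per transcript as deposited by the authors, 1 column for each of the 20 libraries and without normalisation, with a transcript length in bases. The submitters' processing notes list Bowtie 0.12.2 and DESeq 1.10.1 without a role. No source used here names the counting program or the reference transcripts. Per the labels' protocols a directional library kit was used. Estimated counts were rounded. N is the rounded count over the median-of-ratios size factor from all 20 libraries (DESeq2 1.42.0). Ovary against testis and the weight gain slope (with sex as a term) were fitted on the 10 gonad libraries in R 4.3.3 by the quasi-likelihood test of edgeR 4.0.16, after TMM scaling of the full library totals. A transcript entered with 10 counts or more in 5 or more libraries, and a Benjamini-Hochberg adjusted p under 0.05 over all of them was a call. The SE is the log2 change over the square root of F. Fits were tested on simulated data.

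The members and the lists were chosen with earlier results of these data known. Named transcripts were the 2 with the highest smaller gonad median, the 2 called of largest change per direction with no overlap, the 2 with the lowest coefficient of variation over gonads, the 2 with the largest range over testes and over ovaries, and the 2 just inside the gonad minimum. Alternatives were DESeq2, its size factors, library totals, other filters, all 4 groups in 1 fit, a replicate block, weight gain as covariate, other rule settings and leaving out libraries.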

Additional observations from a re-analysis of the deposited data

Results flagged for a closer look

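The criterion used here was a gap to the nearest library that takes most of the group's range (Dixon's 95% value). With 5 libraries per group, chance sets about 1 in 20 groups apart by it when values are normally distributed and unselected. N is skewed, and some named transcripts were picked for a wide range over these libraries. That rate therefore does not apply here, and nothing is read from the number of groups flagged. Over 24 groups of named transcripts, 4 stood out, and 1 of the 4 groups did for the set's share of counts. The share of counts in gonad-shared transcripts was 0.143% in female hepatopancreas 4, against 0.00109% to 0.00441% in the other female hepatopancreas libraries. Transcript9002 had an N of 1022.93 in ovary 1 and 4.68 to 154.44 in the other ovaries. Transcript11827 had 173.22 in ovary 1 and 26.9 to 61.39 in the others. Transcript6293 had 538.73 in testis 5 and 166.82 to 242.79 in the other testes. Transcript10942 had 1203.18 in testis 1 and 0 to 228.03 in the others.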

How the results depend on the processing

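The number of transcripts that met the rule was 96, and it moved by over 1.5 times with library totals alone (192, all 96 among them) and with a gonad minimum of 100 (53). Group means in place of medians gave a similar number (93) but changed the membership, with 67 of them among the 96. A hepatopancreas limit of 5 gave 69, all among the 96. Leaving out 1 library gave 74 to 108, lowest without testis 4. Calls between ovary and testis (18, 11 higher in ovary and 7 in testis) moved to 28 with DESeq2 (18 and 10, all 18 of the original calls among them), 28 on library totals (24 and 4), 10 with weight gain as covariate (6 and 4) and 37 without testes 1 and 2 (20 and 17, with 14 of the 18 among them). Leaving out 1 gonad library gave 13 to 27 calls, 7 to 18 higher in ovary (7 without testis 3, 18 without testis 5) and 6 to 9 higher in testis. Calls for weight gain stayed at 0 in each setting run. The replicate block gave 14 calls, all among the 18. Same-numbered ovary and testis libraries come from different animals, a female and a male, and the labels state no pairing. The correlation of their deviations ran from -0.03 to 0.11 and passed 0.1 for 1 of 5 numbers. It cannot settle what a shared number stands for.

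Among named transcripts, 4 that were not called changed sign in the ovary minus testis log2 change. Transcript10942 (-0.50) was 1.38 on library totals, 0.95 without testis 1 (-1.31 to 0.95 over single libraries left out) and 1.37 without testes 1 and 2. Transcript6905 (-0.35) was 0.92 on library totals, 0.06 without testis 4 (-0.63 to 0.06) and 0.13 with weight gain as covariate. Transcript6494 (0.21) was -0.12 without testis 1 or testis 2 and -0.59 without both, and transcript131 (0.59) was -0.26 without both. The cause was not tested. The number of members under 10 in testes 1 and 2 and at 10 or more in testes 3 to 5 was 50 under TMM scaling and 55 on library totals, against 50. Values near 10 in testes 1 and 2 rest on few counts, since 3 counts there are an N of 4.83 and 3.60.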
